A study of Rattus norvegicus with 24 samples.

Results

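The interferon response genes described here are 31 named rat genes: interferon-stimulated antiviral effectors, sensors of foreign RNA, and the STAT and IRF transcription factors that switch such genes on. Members were found by matching the gene IDs of the count tables to RefSeq symbols, and 29 of the 31 had a row among 15319 genes. Rigi and Xaf1 had no matching row and were not analysed here. Of the 29, 28 passed the filter on low counts in every fit. Ifit1, which binds viral RNA lacking a self-type cap, did not: it had 0 to 2 counts in any library, under a floor of 3 counts, or 0.327 to 0.429 CPM (counts scaled to the library total). No fold change is given for it.

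The data were bulk RNA sequencing of liver from 24 Sprague-Dawley rats, an outbred stock, with 1 library per animal. The animals breathed PCB 52, a polychlorinated biphenyl with few chlorine atoms that is found in indoor air, or were sham-exposed, in a nose-only system for 4 hours a day over 28 days. The females were 42 days old when exposure started, and the males 39 days. The 4 groups were sham female, PCB 52 female, sham male and PCB 52 male, with 6 animals each, and the labels gave no other treatment or allele. Each sex had its own deposited count table, so sex, starting age and table cannot be told apart in any comparison of females with males. Library totals ran from 6994832 to 9185511 counts, so a single count was worth between 0.109 and 0.143 CPM. Hepatocyte markers summed to between 165000 and 205000 CPM in every library. Mpo, a neutrophil marker, was at 0 in 23 of 24 libraries and Cd3d, a T cell marker, in 12. Others of the same lists were above 0 in every library. Among them were Itgam (1.04 to 5.72 CPM), Ly86 (2.75 to 7.28), Cd8a (0.521 to 3.87) and Prf1 (1.48 to 7.4). On the first principal component of group-centred log2 CPM (13.2% of the variance), animals 15, 16 and 13 held the 3 highest scores. Sham female 6 and sham male 6 held ranks 4 and 5 (scores 13.4 and 13.1), ahead of animal 14 at rank 6 of 24 (12.9). The 4 libraries of animals 13 to 16 (PCB 52 female 1 and 2, PCB 52 male 1 and 2) were also left out together. Named values that moved by over 1.5 times without them are given with both. All 4 were from exposed animals, and the sham libraries with high scores were kept. Leaving the 4 out therefore changes the exposed groups alone.

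Type I interferons bind the Ifnar receptor and activate STAT2 and other STAT factors, which join IRF9 on a DNA element called the interferon-stimulated response element. Interferon gamma binds the Ifngr receptor and acts through STAT factors on the gamma-activated site. In liver, hepatocytes and resident macrophages (Kupffer cells) both carry these receptors, and a low tonic activity of the pathway keeps many of its targets detectable without infection.

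Because the members share regulators, the 250 bases upstream of each RefSeq start site (build GRCr8) were searched on both strands for the core letters of these 2 elements. RefSeq held a promoter for 22 of the 29 members. The response-element letters GAAANNGAAA (TTTCNNTTTC on the other strand) were present in 13 of these 22 promoters (59.1%), against 902 of 27457 promoters in the whole table (3.29%) and 234 of 8652 promoters of genes tested (2.7%). The gamma-activated letters TTCNNNGAA, which read the same on the other strand, were present in 7 of 22 (31.8%), against 7.52% of all promoters. A match is a description of letters and not a measured binding site. The windows below are from some of the members with a match, chosen after their values were seen, with the matches named for each in capitals. Being printed does not tie a match to a result below. Oas1a, Ifih1, Irf7 and Gbp2 were called in neither main sex comparison, and Stat2, called in both, had no match. The first 6 show GAAANNGAAA or its other strand, and those of Ifi47 and Irf1 show TTCNNNGAA. In Bst2 and Oas1a 2 matches share the GAAA between them, and in Bst2 a TTCNNNGAA match starting 137 bases upstream overlaps the first. The Parp14 window also holds a TTCNNNGAA match, starting 87 bases upstream, and both of these TTCNNNGAA matches are left in lower case outside the shared letters.
Bst2, chr16:18255063-18255118, minus strand: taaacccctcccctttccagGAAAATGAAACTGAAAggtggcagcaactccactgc
Oas1a, chr12:41330405-41330460, plus strand: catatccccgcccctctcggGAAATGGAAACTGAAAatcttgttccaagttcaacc
Parp14, chr11:78408038-78408087, plus strand: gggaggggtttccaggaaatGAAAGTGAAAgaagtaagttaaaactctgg
Ifih1, chr3:67683998-67684047, minus strand: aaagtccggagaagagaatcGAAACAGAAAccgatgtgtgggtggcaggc
Irf7, chr1:205800063-205800112, minus strand: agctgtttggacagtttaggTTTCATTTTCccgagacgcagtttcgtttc
Gbp2, chr2:234005676-234005725, plus strand: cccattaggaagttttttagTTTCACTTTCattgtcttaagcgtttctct
Ifi47 upstream match, chr10:33798512-33798560, plus strand: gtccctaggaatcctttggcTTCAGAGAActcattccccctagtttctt
Ifi47 downstream match, chr10:33798628-33798676, plus strand: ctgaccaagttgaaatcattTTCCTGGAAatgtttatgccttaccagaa
Irf1, chr10:38417773-38417821, plus strand: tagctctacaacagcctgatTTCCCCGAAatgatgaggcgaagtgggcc
The first matched base lay 131 and 125 bases upstream of the start in Bst2, 41 and 35 in Oas1a, 76 in Parp14, 59 in Ifih1, 69 in Irf7 and 31 in Gbp2. Ifi47, the member with the largest sex difference, had no GAAANNGAAA in its window and a pair of TTCNNNGAA matches, starting 212 and 96 bases upstream. The TTCNNNGAA match of Irf1 began 142 bases upstream. Neither set of letters was found in these windows of Dtx3l, Mx1, Oasl, Parp9, Stat2 or Trim25.

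The first question was whether inhaled PCB 52 changed the expression of these genes in liver. No member was called in either sex at an adjusted p of 0.05 (edgeR quasi-likelihood test, Benjamini-Hochberg over all genes tested). In females 0 of 28 members were called, and the percentage called over all 10251 genes tested was also 0.0%. At an unadjusted p under 0.05 there were 2 members (7.14%), against 1021 of all genes (9.96%). In males 0 of 28 were called against 0.0% of 10180 genes, with 1 member at an unadjusted p under 0.05 (3.57%) against 585 genes (5.75%). DESeq2 and limma-voom called 0 members in each sex as well. No member had exposed and sham libraries that did not overlap in CPM, against 0.332% of genes in females and 0.236% in males.

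Small positive log2 fold changes were in the majority, and in females this majority was not present without 2 libraries. In females 20 of 28 members lay above 0 and 8 below, with a median log2 fold change of 0.10 against 0.003 over all genes. Without animals 13 to 16, 8 of 28 lay above 0 and the median was -0.09. Leaving out single libraries moved the female median by more than 1.5 times in 6 cases: to 0.012 without PCB 52 female 1, 0.016 without PCB 52 female 2, 0.046 without sham female 2, 0.172 without PCB 52 female 4, 0.181 without PCB 52 female 5 and 0.218 without sham female 1. In males 22 of 28 lay above 0 and 6 below, with a median of 0.08 against 0.003 over all genes, and the median without animals 13 to 16 was 0.083. The male median was 0.019 without sham male 1, where 15 members lay above 0. It was 0.128 without sham male 5, 0.123 without PCB 52 male 1, 0.036 without PCB 52 male 2, 0.154 without PCB 52 male 5 and 0.034 without PCB 52 male 6.

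**Figure D1:**
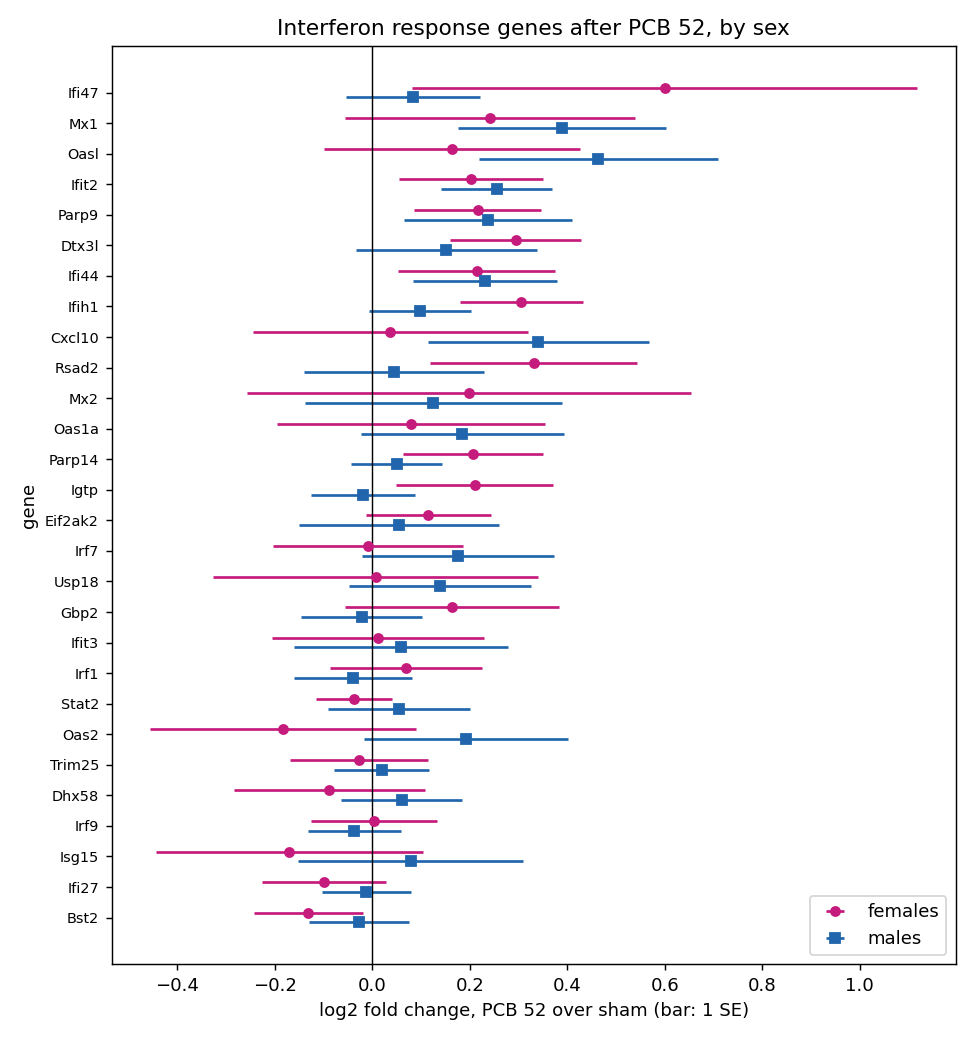
Log2 fold change of each of the 28 tested members after PCB 52, in females (circles) and males (squares), with bars of 1 standard error and genes ordered by the average of the sexes. Most points lie to the right of 0, most bars are about as long as the distance to it or longer, and no member was called in either sex.

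Among the RNA sensors, Ifih1 (MDA5, which detects long double-stranded RNA) had the smallest p of the members in females. Its level was 20.8 to 29.3 CPM in sham females (median 25.4) and 23.8 to 36.8 CPM in PCB 52 females (median 31.3). The groups overlapped, and the highest values were those of PCB 52 females 1 and 2, at 35.9 and 36.8 CPM. The log2 fold change was 0.31 ± 0.13 (SE) with an edgeR adjusted p of 0.457, and 0.17 without animals 13 to 16. Dhx58 (LGP2), a relative of Ifih1 that tunes its activity, had a log2 fold change of -0.09 ± 0.20 in females and 0.06 ± 0.12 in males.

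The ADP-ribosylation partners Parp9 and Dtx3l, which form an enzyme pair that modifies histones and viral proteins, were above 0 in both sexes. Dtx3l stood at 62.8 to 80.1 CPM in sham females (median 76.6) and 70.5 to 118 CPM in PCB 52 females (median 84.5). Its female log2 fold change was 0.29 ± 0.13 (edgeR adjusted p = 0.487), and 0.07 without animals 13 to 16. Parp9 ran from 63.4 to 86.4 CPM in sham females and 60.6 to 107 CPM in PCB 52 females, a log2 fold change of 0.22 ± 0.13 (edgeR adjusted p = 0.588) that was 0.054 without animals 13 to 16 and 0.13 without PCB 52 female 1. Again the sham and exposed libraries overlapped, and PCB 52 females 1 and 2 held the highest values of Dtx3l, at 114 and 118 CPM.

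Of the 12 antiviral effectors tested, 9 lay above 0 in females and 10 in males. Ifit2, an RNA-binding inhibitor of translation, was the male member with the smallest p: 16.7 to 21.1 CPM in sham males (median 17.3) and 15.9 to 26.3 CPM in PCB 52 males (median 20.5). The exposed range enclosed the sham range, and its upper end came from PCB 52 males 1 and 2, at 25.3 and 26.3 CPM. The log2 fold change was 0.26 ± 0.11 (edgeR adjusted p = 0.829), and 0.11 without animals 13 to 16. Oasl, an OAS-like protein, had a male log2 fold change of 0.46 ± 0.25, from 1.59 to 5.15 CPM in sham males and 2.25 to 6.82 CPM in PCB 52 males. Mx1, a GTPase that traps viral components, had 0.39 ± 0.21, from 7.24 to 20.4 CPM in sham males and 13.7 to 27.9 CPM in PCB 52 males. Both had an edgeR adjusted p of 0.829. Sham male 1 held the lowest sham value of each, and without it the log2 fold changes were 0.319 for Oasl and 0.243 for Mx1.

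The members with negative log2 fold changes had small ones. Bst2 (tetherin, which holds budding virus at the cell surface) had -0.13 ± 0.11 in females and -0.03 ± 0.10 in males. The female value was -0.004 without animals 13 to 16 and -0.047 without PCB 52 female 2. Ifi27, a mitochondrial interferon-induced protein with the highest mean CPM of the members, had -0.10 ± 0.13 in females, where it spanned 397 to 683 CPM in sham and 350 to 581 CPM in exposed libraries. The female value of Oas2, which makes the 2-5A messenger of antiviral RNA decay, was -0.18 ± 0.27, became 0 without PCB 52 female 5 and was -0.317 without animals 13 to 16. The lowest Oas2 level in that group, 0.692 CPM, was in that library. The transcription factors Irf9 and Irf1 had -0.04 ± 0.10 and -0.04 ± 0.12 in males, and each turned positive without animals 13 to 16, at 0.037 and 0.018, as did Bst2 at 0.083.

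By role, the 3 ADP-ribosylation genes (Parp9, Dtx3l and Parp14) lay above 0 in both sexes, and so did 4 of 4 gamma-induced GTPases and Cxcl10 in females against 2 of 4 in males. Of the 3 genes around ISG15, a ubiquitin-like tag for proteins, 1 lay above 0 in females and 3 in males. Isg15 itself was at 5.31 to 15.5 CPM in sham females, 4.7 to 12.2 CPM in PCB 52 females, 4.54 to 12.7 CPM in sham males and 5.69 to 12.7 CPM in PCB 52 males. Of the 4 transcription factors 2 lay above 0 in each sex. Over the 15 members not described singly for exposure, log2 fold changes ran from -0.17 to 0.33 in females and from -0.02 to 0.34 in males, with smallest edgeR adjusted p-values of 0.614 and 0.829.

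The difference between the responses of the sexes was tested in 1 fit of all 24 libraries. No member was called among 28, against 0.0% of 10535 genes, and no member but 239 genes had an unadjusted p under 0.05. All members had an edgeR adjusted p of 1. The members with the smallest p were Ifih1 (0.21 ± 0.17), Igtp, a GTPase induced by interferon gamma (0.23 ± 0.20), and Rsad2 (viperin, which makes a chain-terminating nucleotide; 0.29 ± 0.28) with a larger value in females. In the other direction they were Oas2 (-0.38 ± 0.34), Oasl (-0.30 ± 0.37) and Cxcl10, a chemokine for T cells (-0.30 ± 0.38). Each of these 6 differences was close to its SE. Rsad2 had 0.159, Oas2 -0.634 and Cxcl10 -0.637 when animals 13 to 16 were left out, and the median over the 28 members went from -0.05 to -0.145. For the average response over both sexes 0 of 28 members were called, against 0.0% of 10535 genes, and 2 members (7.14%) had an unadjusted p under 0.05 against 15.4% of genes. Those 2 were Ifih1 at 0.21 ± 0.08 (edgeR adjusted p = 0.249) and Ifit2 at 0.23 ± 0.10 (adjusted p = 0.256). Parp9 followed at 0.23 ± 0.11 (adjusted p = 0.324). The negative members with the smallest p were Bst2 (-0.08 ± 0.08), Ifi27 (-0.05 ± 0.08) and Isg15 (-0.04 ± 0.19). Without animals 13 to 16 the average log2 fold changes of Ifih1, Ifit2 and Parp9 were 0.081, 0.056 and 0.069, those of Bst2, Ifi27 and Isg15 were 0.039, -0.01 and -0.187, and the median over members went from 0.09 to 0.005. That median was 0.173 without sham female 1, 0.055 without PCB 52 female 1, 0.051 without PCB 52 female 2, 0.157 without PCB 52 female 5 and 0.061 without sham male 1.

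Sex separated some members far more clearly than exposure did. In sham animals 5 of 28 members were called between females and males (17.9%), and in PCB 52 animals 5 of 28 (17.9%), against 20.3% and 19.9% of all 10535 genes. The members' share was therefore near the background, and the set as a whole did not stand out in number of calls. Only Bst2 and Ifi47 had female and male libraries that did not overlap, in sham and in PCB 52 animals alike, against 11.5% and 9.84% of genes. The median log2 difference, female minus male, was -0.23 in sham and -0.24 in PCB 52 animals, with 20 and 22 of 28 members below 0. Over all genes these medians were -0.003 and -0.004, and 49.5% and 49.2% of genes lay above 0, against 28.6% and 21.4% of members. The PCB 52 median was -0.371 without animals 13 to 16, -0.141 without PCB 52 female 5 and -0.135 without PCB 52 male 2.

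Bst2 was higher in female liver. Sham females had 159 to 210 CPM (median 187), PCB 52 females 121 to 208 CPM (median 171), sham males 65.5 to 90.3 CPM (median 76.6) and PCB 52 males 60.7 to 87 CPM (median 75.4). Every female library exceeded every male library. The log2 difference was 1.24 ± 0.11 in sham animals (edgeR adjusted p = 8.38e-10) and 1.13 ± 0.11 in PCB 52 animals (adjusted p = 5.09e-09).

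Ifi47, a GTPase of the interferon gamma-induced family that acts on vacuoles holding pathogens, differed most. It was at 19.6 to 120 CPM in sham females (median 58.9) and 22.2 to 162 CPM in PCB 52 females (median 87.9), against 9.57 to 14.1 CPM in sham males (median 13) and 9.74 to 18.2 CPM in PCB 52 males (median 12.4). The female values were widely spread but none reached the male range. Its log2 difference was 2.27 ± 0.42 in sham animals (edgeR adjusted p = 0.000348) and 2.79 ± 0.42 in PCB 52 animals (adjusted p = 3.32e-05). Within females the PCB 52 log2 fold change was 0.60 ± 0.52 (adjusted p = 0.72), a value close to its error.

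Stat2, a transcription factor downstream of type I interferon, was lower in females. It ran from 127 to 156 CPM in sham females (median 147), 123 to 163 CPM in PCB 52 females (median 136), 144 to 232 CPM in sham males (median 203) and 153 to 266 CPM in PCB 52 males (median 190). The sexes overlapped only through sham male 1 among sham animals, and through PCB 52 males 1 and 5 among exposed animals. The log2 difference was -0.48 ± 0.12 in sham animals (edgeR adjusted p = 0.00266) and -0.57 ± 0.12 in PCB 52 animals (adjusted p = 0.000417). Bst2, Ifi47 and Stat2 were called in both comparisons under every alternative tool, filter, scaling and left-out library that was run.

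Usp18, which removes ISG15 from proteins and blocks the type I receptor, was lower in females in both comparisons. Sham females had 8.58 to 23.3 CPM (median 12.9) and sham males 15 to 30.7 CPM (median 25.1), a log2 difference of -0.83 ± 0.28 (edgeR adjusted p = 0.0394). PCB 52 females had 4.29 to 23.5 CPM (median 13.5) and PCB 52 males 18.6 to 38.6 CPM (median 27.8), a log2 difference of -0.96 ± 0.28 (adjusted p = 0.0164). The groups overlapped in each case. The sham call was lost with no filter on low counts (adjusted p = 0.0558) and when any of sham female 2 to 6 or sham male 2, 5 or 6 was left out (adjusted p 0.0568 to 0.0912).

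Parp14, an ADP-ribosyltransferase, and Irf1, a factor that drives many gamma-induced genes, were each called in 1 of the 2 comparisons. Parp14 was at 75.5 to 100 CPM in sham females and 87.7 to 125 CPM in sham males, a log2 difference of -0.39 ± 0.13 (edgeR adjusted p = 0.0299). It was -0.23 ± 0.13 in PCB 52 animals (adjusted p = 0.233). Irf1 was at 14.5 to 27.2 CPM in PCB 52 females and 12.6 to 17.9 CPM in PCB 52 males, a log2 difference of 0.47 ± 0.15 (adjusted p = 0.0193), and 0.36 ± 0.15 in sham animals (adjusted p = 0.0783). The change between the comparisons is the interaction tested above, which was called for neither gene (edgeR adjusted p = 1 for both). Parp14 lost its call without any of sham female 2, 3, 4 or 5 or sham male 2, 4, 5 or 6 (adjusted p 0.0541 to 0.0744). Irf1 lost its own without animals 13 to 16 (0.23, adjusted p = 0.423), with limma-voom (adjusted p = 0.057), and without PCB 52 female 1 or 2 or PCB 52 male 4 (adjusted p 0.0548 to 0.0625). In sham animals Irf1 gained a call without sham female 6, PCB 52 female 4 or sham male 4 (adjusted p 0.0354 to 0.0452).

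**Figure D2:**
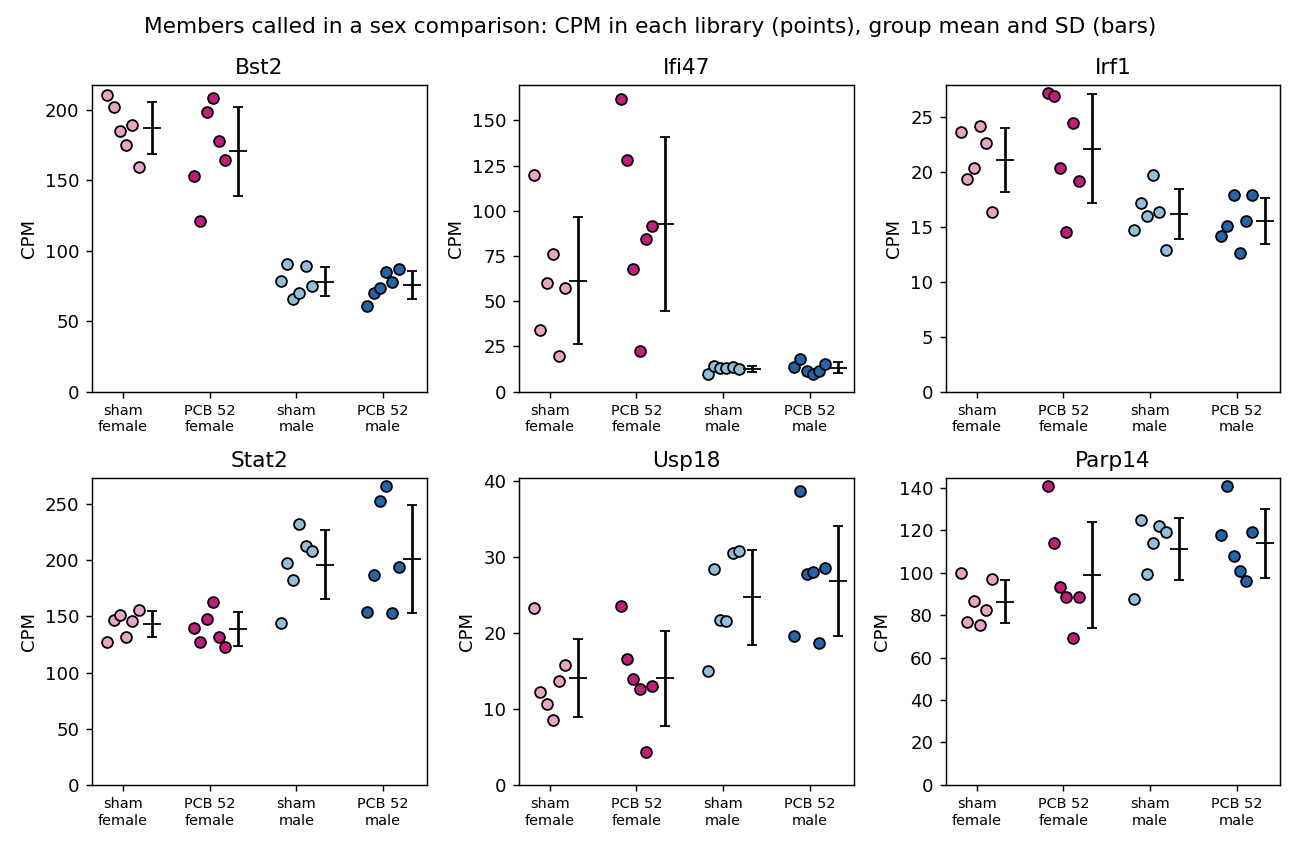
CPM of the 6 members called in at least 1 sex comparison, 1 point per library, with the group mean and SD as a bar beside each group. Bst2 and Ifi47 lie higher in every female than in any male library, while Stat2, Usp18, Parp14 and Irf1 overlap between the sexes.

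Irf7, the factor that amplifies type I interferon production, had the smallest p among the members not called as lower in PCB 52 females than in PCB 52 males, ahead of Trim25 (-0.29 ± 0.13, edgeR adjusted p = 0.131) and Ifit3 (-0.49 ± 0.23, adjusted p = 0.151). It ran from 16.6 to 44.7 CPM in PCB 52 females and 28.7 to 62.0 CPM in PCB 52 males, with a log2 difference of -0.49 ± 0.21 that was not called (edgeR adjusted p = 0.111). It was called with limma-voom (-0.60, adjusted p = 0.0436), without animals 13 to 16 (-0.78, adjusted p = 0.0342) and without PCB 52 female 2 (adjusted p = 0.0495). The number of members called in PCB 52 animals was 8 without animals 13 to 16. These were Bst2, Ifi47, Stat2 and Usp18 together with Dhx58, Irf7, Irf9 and Parp14. The share of all genes called in that setting is not given here, so the 8 are not read as an excess. In sham animals the number of members ranged from 3 to 8 when single libraries were left out, while 1928 to 2189 of all genes were called. The number of members was 3 without sham female 2, 3, 4 or 5 or sham male 2, 5 or 6, and 8 without sham male 1.

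Markers of Kupffer cells and macrophages moved with sex in the direction of Bst2 and Ifi47. Their summed level over 15 genes was 973 to 1270 CPM in sham females and 895 to 1120 CPM in PCB 52 females, against 730 to 907 CPM in sham males, and PCB 52 males had at most 871 CPM (median 805). Of the 15, 8 were called higher in females (53.3%) in sham and in PCB 52 animals alike, and none lower. Over all genes 20.3% and 19.9% were called, in either direction. The log2 differences of C1qa, a complement gene of macrophages, were 0.44 and 0.35. Markers of T and NK cells summed to 39.2 to 57.5 CPM in sham females and 31.2 to 38.9 CPM in sham males. Cd4 and Prf1 were the 2 called of 7 tested (28.6%), a share near that of all genes. Cd4, which rat macrophages also carry, made up a large part of this sum, at 18.4 to 37.6 CPM. Of the dendritic cell markers other than Bst2, 0 of 7 were called in either comparison. The summed B and plasma cell level was higher in males, 331 to 726 against 125 to 220 CPM in sham animals, through Xbp1, a gene that hepatocytes also express. Some hepatocyte markers went the other way: 3 of 10 were called lower in sham females (30.0%) and 4 of 10 in PCB 52 females (40.0%), none higher. The median log2 differences were -0.14 and -0.22, with 2 and 4 of 10 above 0. Summed hepatocyte levels overlapped between the sexes, at 165000 to 205000 CPM in sham females and 175000 to 193000 CPM in sham males. No marker of any of these lists was called after exposure, against 0.0% of all genes in each sex. In bulk tissue, fewer cells of a type and less RNA per cell cannot be told apart, and the part of these cell types in the sex differences was not tested.

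Other genes of the pathway were taken from lists of textbook members. Of 17 named interferon ligands and receptors 8 had a row and 4 were tested, all of them receptor chains. The ligands present were near 0: Ifng had 3 counts, Ifna4 4 and Ifnk 2 over all 24 libraries together. Ifngr2, the signalling chain of the interferon gamma receptor, was higher in females: 20.5 to 33.3 CPM in sham females against 10.6 to 14.6 CPM in sham males, and 23.4 to 33.6 CPM in PCB 52 females against 9.74 to 12.5 CPM in PCB 52 males. Its ranges did not overlap, which held for 11.5% and 9.84% of all genes in these comparisons. The log2 differences were 1.02 ± 0.13 (edgeR adjusted p = 4.31e-07) and 1.18 ± 0.13 (adjusted p = 3.2e-08). Ifngr2 was the 1 of 4 tested genes called in each comparison (25.0%), against 20.3% and 19.9% of all genes. After exposure 0 of the 4 receptor chains were called. The values were 0.08 ± 0.14 in females and -0.08 ± 0.11 in males for Ifngr2, and 0.27 ± 0.17 and -0.06 ± 0.13 for Il10rb, a chain of the lambda interferon receptor. Without animals 13 to 16 Il10rb had 0.059 and -0.16, and Ifngr2 0.035 and 0.012.

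In the signalling list 15 of 17 genes with a row were tested, and none was called higher in females. Cited2, a competitor for the coactivator p300, was lower in females, with log2 differences of -1.64 ± 0.20 in sham animals (edgeR adjusted p = 6.29e-07) and -1.35 ± 0.20 in PCB 52 animals (adjusted p = 1.25e-05). Irf2, an antagonist of Irf1, had -0.37 ± 0.09 in PCB 52 animals (adjusted p = 0.00441). After exposure none of the 15 was called. Irf3, a factor that starts interferon production, had -0.19 ± 0.09 in females (edgeR adjusted p = 0.523). In males Irf8 had -0.35 ± 0.15 and Irf2 0.17 ± 0.09 (adjusted p = 0.829 for both). Without animals 13 to 16 the female Irf3 value was -0.084 and the male Irf2 value 0.097.

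Nucleic acid sensors and their adaptors gave 17 tested genes of 18 with a row in the fit of both sexes. Between the sexes 2 of 17 (11.8%) were called in sham and in PCB 52 animals alike, against 20.3% and 19.9% of all genes. Mavs, the adaptor of Ifih1, was higher in sham females (0.32 ± 0.09, edgeR adjusted p = 0.00875) and Adar, the double-stranded RNA editor, lower (-0.35 ± 0.11, adjusted p = 0.0146). In PCB 52 animals Tlr3, the endosomal sensor of double-stranded RNA, was higher in females (0.61 ± 0.13, adjusted p = 0.000938), as was Tlr8, a sensor of single-stranded RNA (0.63 ± 0.21, adjusted p = 0.032). The Tlr8 call was lost with limma-voom (adjusted p = 0.086), without animals 13 to 16 (adjusted p = 0.18) and without PCB 52 female 1, 2 or 6 or PCB 52 male 3 or 4. After exposure none of the 15 tested in each sex was called. In females Tlr3, named for the smallest p of the 15, was at 17.9 to 23.9 CPM in sham and 24.9 to 35.7 CPM in exposed libraries. These ranges did not overlap, which held for 0.332% of all genes in females. The log2 fold change was 0.44 ± 0.13, with an edgeR adjusted p of 0.376 over all genes. In males Tlr3 had 0.19 ± 0.13. Without animals 13 to 16 these were 0.376 and 0.081. Ikbke, a kinase upstream of IRF activation, had 0.32 ± 0.13 in females and 0.28 ± 0.11 in males (adjusted p of 0.446 and 0.829).

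Among 68 tested further interferon-stimulated genes, of 71 with a row, 13 were called higher and 6 lower in sham females than in sham males, and 11 and 5 in PCB 52 animals. These 19 and 16 genes were 27.9% and 23.5% of the list, against 20.3% and 19.9% of all genes. The genes called higher with the smallest p were Ifi27l2b, a relative of Ifi27 (1.05 ± 0.11 in sham animals), Fas, the death receptor (1.53 ± 0.17), and the immunoproteasome subunits Psmb10 (0.97 ± 0.12) and Psmb8 (0.69 ± 0.11). In PCB 52 animals they were the same 4, at 0.96 ± 0.11, 1.56 ± 0.17, 0.92 ± 0.12 and 0.76 ± 0.11. Casp4, a caspase that senses bacterial lipopolysaccharide, led those called lower (-1.05 ± 0.20 and -1.04 ± 0.19). It was followed by Znfx1, an RNA helicase (-0.53 ± 0.13 and -0.57 ± 0.13), Trim34 (-0.39 ± 0.11 and -0.51 ± 0.11) and Lgals8, a galectin (-0.35 ± 0.10 in each). After exposure 0 of 67 were called in females and 0 of 66 in males, with medians of 0.08 in each sex. The smallest p-values were those of the restriction factor Trim5 (0.37 ± 0.12) and the aminopeptidase Lap3 (0.22 ± 0.09) in females, and of Trim34 (0.28 ± 0.08) and the membrane restriction factor Ifitm3 (0.34 ± 0.11) in males.

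Within groups, single animals differed in most members at once. The within-group SD of log2 CPM had a median of 0.32 over the 28 members, against 0.23 over 10535 genes. The 5 most variable members were Ifi47 (0.72, through the females), Mx2, a GTPase related to Mx1 (0.66), Usp18 (0.54), Mx1 (0.52) and Oas1a, a 2-5A synthetase (0.50). They lay between the 91.4 and 98.0 percentile of all genes tested. Mx2 spanned 15.2 to 64.6 CPM in sham females (median 23.4), 14.8 to 66.7 in PCB 52 females (median 31.8), 17 to 50.8 in sham males (median 31.4) and 21.3 to 50.6 in PCB 52 males (median 33.6). Oas1a spanned 8.71 to 19.6 CPM in sham females, 5.67 to 18.9 in PCB 52 females, 12.4 to 20.4 in sham males and 9.87 to 26.1 in PCB 52 males. In Mx2 and Oas1a the spread inside each group was wider than any difference between group medians. Stat2, Ifi27, Bst2 and Irf9 varied least, with SDs of 0.21 to 0.22.

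The same libraries were high or low across many members. Sham female 1 held the highest value of its group in 19 of 28 members, against 23.8% of all genes, and PCB 52 female 1 and 2 in 12 each, against 17% and 21.5%. In males PCB 52 male 2 was highest in 15 (20.3% of genes). At the low end, sham male 1 was lowest of its group in 20 members (18.7% of genes), PCB 52 female 5 in 18 (13.9%), sham female 2 in 14 (12.8%) and PCB 52 male 5 in 14 (14.2%). The median deviation of the members from their group mean was 0.35 (log2) in sham female 1, 0.38 and 0.40 in PCB 52 female 1 and 2, -0.45 in PCB 52 female 5 and -0.38 in sham male 1. Over all genes it was 0 to 0.013 in each library. Low libraries were found in all 4 groups, and the high ones named here in sham females and both exposed groups. The high exposed libraries named here belonged to animals 13 to 16. PCB 52 male 6, outside these animals, had a median deviation of 0.237. In sham males the largest was 0.143, in sham male 5. Summed Kupffer cell markers were 995 CPM in sham female 1 (group median 1030), 895 CPM in PCB 52 female 5 (group median 986) and 730 CPM in sham male 1 (group median 816). PCB 52 female 5 and sham male 1 were thus the lowest of their groups for these markers too. Other libraries did not follow: PCB 52 male 2, highest in 15 members, had the lowest Kupffer cell sum of its group, and the low libraries sham female 2 (1060 CPM) and PCB 52 male 5 (809 CPM, group median 805) lay above their group medians. PCB 52 females 1 and 2 had 972 and 1090 CPM. Sham female 1 had the lowest endothelial sum of its group (372 CPM, group median 504) and the lowest stellate cell sum (290 CPM, group median 492). The part of cell composition in the library pattern was not tested.

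**Figure D3:**
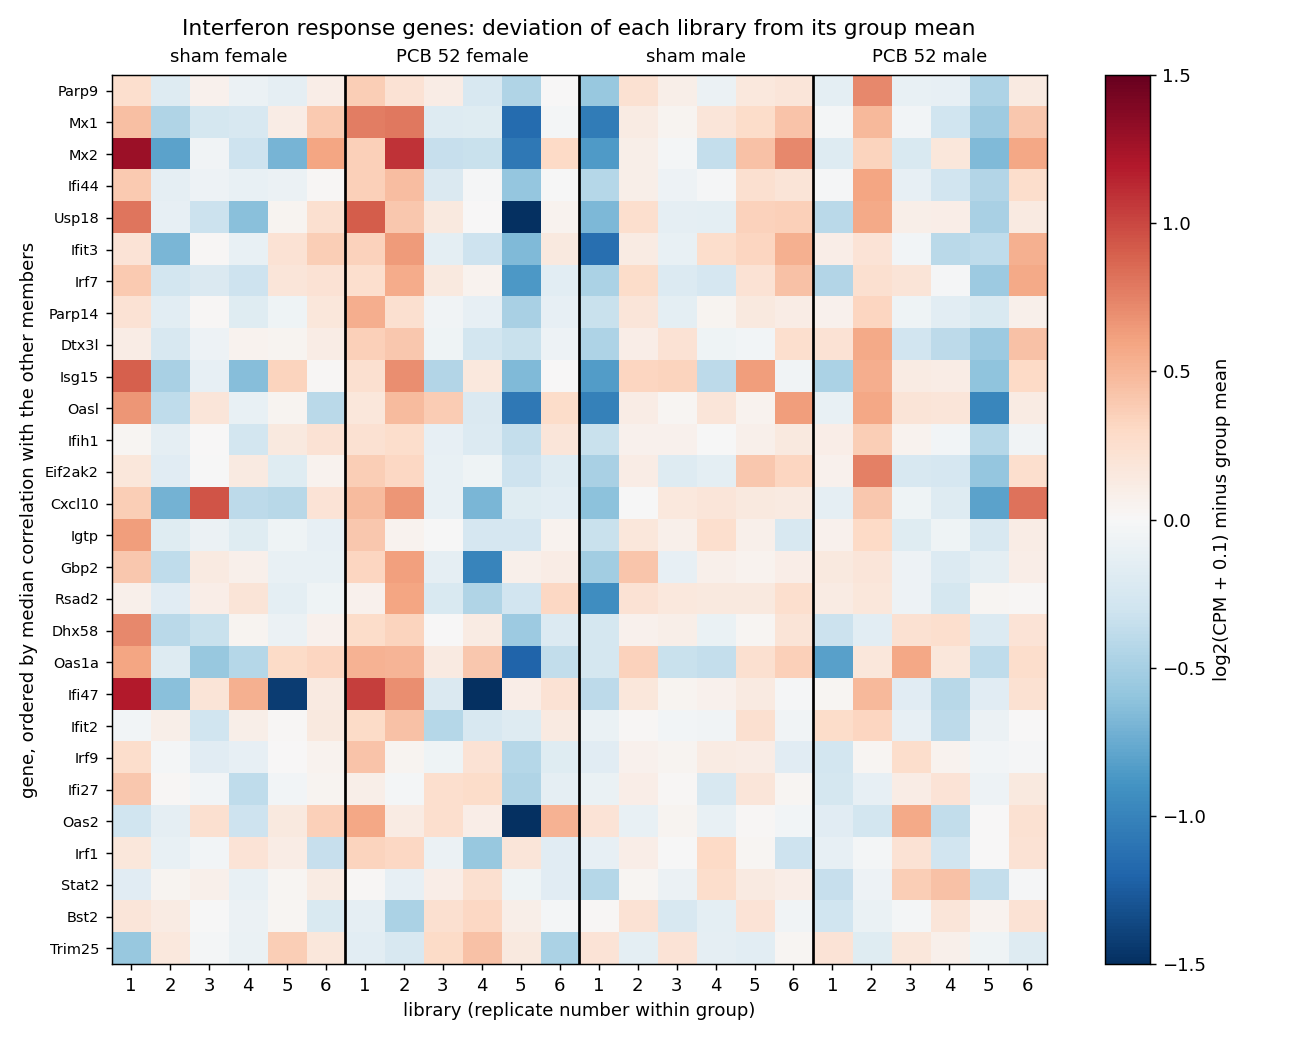
Deviation of each library (columns, 6 per group) from its group mean in log2(CPM + 0.1), for the 28 tested members (rows, ordered by their median correlation with the other members), with red above and blue below the mean and colours saturating at 1.5. Sham female 1 and PCB 52 female 2 are red and sham male 1 and PCB 52 female 5 blue over most rows, while Trim25 and Bst2 at the bottom do not follow.

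As a description over 24 libraries centred on their group means, the median correlation between pairs of members was 0.489, and 187 of 378 pairs (49.5%) had r above 0.5, against 3.24% of all pairs of genes. These points share library preparation and depth, and no p is given. Parp9 (median r with the other members 0.696), Mx1 (0.677) and Mx2 (0.663) followed the rest most closely. Mx1 had an r of 0.915 with Ifit3 and 0.909 with both Ifi44 and Parp14. Other members stood outside this pattern: Irf1 (0.220), Stat2 (0.118) and Bst2 (-0.183). Trim25, a ubiquitin ligase that activates the sensor RIG-I, ran opposite to the rest (-0.506). The 13 members with GAAANNGAAA in the window had a median of these values of 0.551 (range -0.183 to 0.653), and the 9 without it 0.447 (range -0.506 to 0.696), ranges that overlapped almost wholly.

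Because Ifi47 varied most over the 4 groups together, its log2 CPM was correlated with each of the other 27 members. This was done within each sex over 12 libraries, centred on group means. The spread of Ifi47 lay in the females, with SDs of 0.933 in sham and 1.031 in PCB 52 animals. In sham and PCB 52 males the SDs were 0.179 and 0.303, on 78 to 136 counts per library. The 54 relations had two-sided p-values from permutations within groups, adjusted over all 54 (Benjamini-Hochberg). By r, 3 of 27 members passed in females and 11 in males, and by rho 12 and 14. At an unadjusted permutation p under 0.05 the members were 11 of 27 by r in females (40.7%) against 10.1% of all genes, and 13 of 27 in males (48.1%) against 10.6%. By rho they were 14 of 27 in each sex (51.9%), against 9.7% of genes in females and 8.38% in males. The relation to Ifi47 was not separated from the pattern of high and low libraries that the members share. In females Ifi47 rose and fell with Gbp2, a guanylate-binding GTPase induced by interferon gamma (r = 0.876, rho = 0.93, permutation adjusted p = 0.013 and 0.00648). Without the 2 libraries farthest from the Ifi47 median r was 0.896. Trim25 went the other way (r = -0.832, rho = -0.881, permutation adjusted p = 0.017 and 0.0124, and r = -0.726 without the 2 farthest libraries). Rsad2 had r = 0.696 and rho = 0.79 (permutation adjusted p = 0.041 and 0.0247), and r = 0.602 without the 2. In males, where Ifi47 was much lower, the relation to Gbp2 was r = 0.745 and rho = 0.825 (permutation adjusted p = 0.013 and 0.017, and r = 0.802 without the 2). That to Trim25 was r = -0.737 and rho = -0.776 (permutation adjusted p = 0.0281 and 0.0279, and r = -0.758 without the 2). Other members that passed by r in males had larger r than Gbp2 or Igtp. They were Ifi44 (0.882), Parp14 (0.862), Dtx3l (0.839), Parp9 (0.809), Eif2ak2 (0.797) and Mx1 (0.784). The relation to Igtp passed the adjusted threshold for r in males (r = 0.753, rho = 0.825, permutation adjusted p = 0.0235 and 0.0124, and r = 0.82 without the 2) and not in females (r = 0.693, rho = 0.72, permutation adjusted p = 0.0568 and 0.0419, and r = 0.822 without the 2). Without animals 13 to 16, over 10 libraries, r was 0.87 for Gbp2, -0.836 for Trim25, 0.704 for Rsad2 and 0.634 for Igtp in females, and 0.79 for Gbp2, -0.731 for Trim25 and 0.696 for Igtp in males. Whether the relations differed between the sexes was not tested. Bst2, the other member higher in females, had no relation to Ifi47 that passed in either sex (r = -0.371 in females and -0.13 in males, permutation adjusted p = 0.367 and 0.808).

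**Figure D4:**
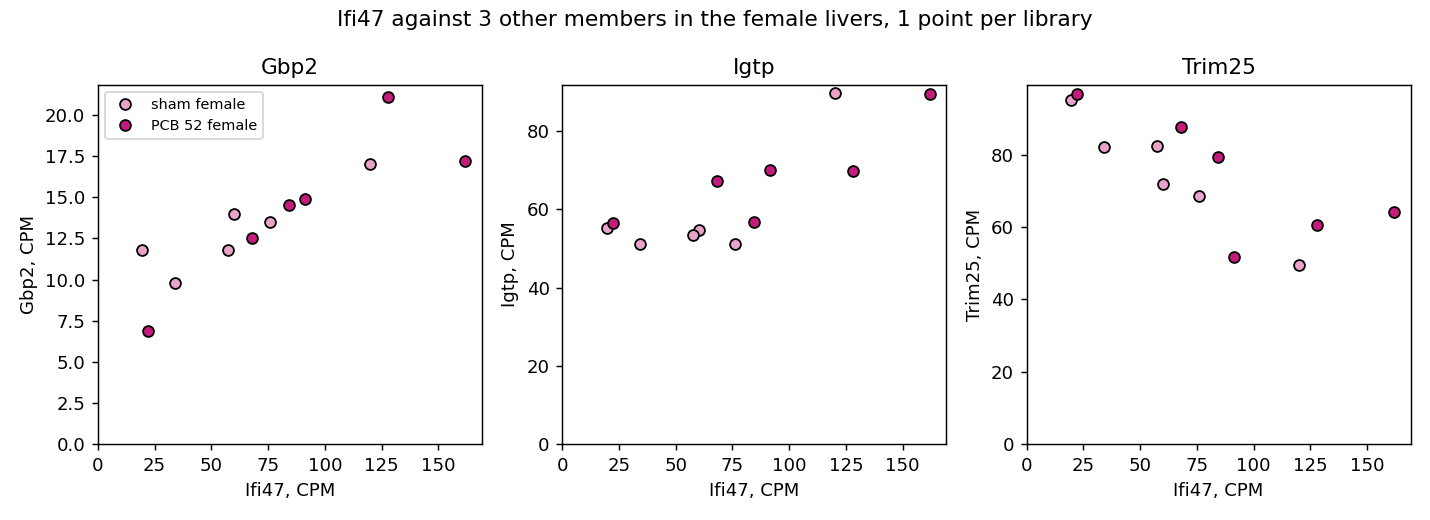
CPM of Gbp2, Igtp and Trim25 (vertical axes) against CPM of Ifi47 (horizontal axes) in the 12 female livers, 1 point per library, sham light and PCB 52 dark. Gbp2 climbs and Trim25 descends with Ifi47 across both groups, and the sham and exposed points mix along each trend.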

How the data were processed

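Per the labels, liver RNA of 24 rats was sequenced, with an extract protocol that mentions poly(A) selection as well as depletion of rRNA. The authors deposited raw gene counts, not normalized, in 1 table per sex. The submitters' processing notes list FastQC, HISAT2 and the rn6 build. For the counter, its strand setting and the annotation the entry is: not given in the sources used here. Therefore overlapping or antisense genes cannot be told apart and near-identical relatives (Mx1 and Mx2, the Oas, Ifit and Gbp families) are uncertain. Of 15319 gene IDs, 15230 matched a RefSeq symbol.

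Counts were filtered with filterByExpr (minimum count 10, minimum total 15), scaled by TMM and tested with edgeR 4.0.16 (robust quasi-likelihood, R 4.3.3) using group means. Each sex was fitted alone for exposure, and all 24 libraries together for the interaction, the average and the sex comparisons. P-values were Benjamini-Hochberg adjusted over all genes tested, and an adjusted p under 0.05 was called. SE is the log2 fold change divided by the square root of F. CPM is counts scaled to the library total, and log2 CPM has a prior count of 2. Alternatives were DESeq2 1.42.0, limma-voom 3.58.1 with quality weights, RLE factors, no filter, 1 CPM in 6 libraries, a fit of all 24 for exposure, each library left out, and animals 13 to 16 left out. The script was also run on simulated counts with 200 changed genes, and the outcome is not given here. Correlations used scipy 1.17.1 with 100000 resamples. Promoters are RefSeq's on GRCr8, another build than the counts'.

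The members, gene lists and tests were chosen with earlier results of these data known. Members given with statistics are those called or, where fewer than 6 were, the 3 higher and 3 lower with the smallest p; levels are given for these, the 3 with the highest mean CPM and the 5 with the largest within-group SD. From each pathway list up to 4 called genes per direction are named, or else the 2 with the smallest p. Some genes of these lists are not reported here. Dhx58, the range of Isg15, the Trim25 and Ifit3 sex differences, the correlations with Ifi47 that are given, the pairs with Mx1 and the printed promoter windows were chosen after their values were seen, as were the principal component, the Ifi47 correlations without animals 13 to 16 and their share over all genes (genes that did not vary within a sex were left out). The labels do not say whether animals shared litters, and p-values measure the spread between these animals.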

Additional observations from a re-analysis of the deposited data

Results flagged for a closer look

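In 10 of 112 sets of 6 libraries (28 members in 4 groups), 1 library lay apart from the other 5 by Dixon's criterion. The nominal rate of this criterion is about 1 in 20. Because members vary together the 112 sets are not independent, and the share over all genes was not computed. The 10 are therefore not read as an excess. Sham male 1 was low for 5 members: Mx1 at 7.24 CPM (others 15.6 to 20.4), Rsad2 at 2.21 (others 4.79 to 5.15), Ifih1 at 24.4 (others 30.7 to 34.2), Ifi47 at 9.57 (others 12.4 to 14.1) and Cxcl10 at 2.94 (others 4.55 to 5.18). Sham female 1 was high for 3: Ifi44 at 22.8 CPM (others 15.8 to 17.6), Dhx58 at 19.7 (others 9.0 to 12.4) and Igtp at 89.8 (others 51.1 to 55.3). Oas2 was low in PCB 52 female 5 at 0.692 CPM (others 2.4 to 3.4), and Ifit2 was high in sham male 5 at 21.1 CPM (others 16.7 to 18.2).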

How the results depend on the processing

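No member was called for exposure, for the difference between the sexes' responses or for the average response under any alternative. The count over all genes was 0 by edgeR and, by DESeq2, 15 in females, 1 in males and 84 for the average. It was 1 in females in a fit of all 24 libraries. Leaving out single libraries gave 0 to 8 genes in females (8 without PCB 52 female 4) and 0 to 15 for the average (15 without the same library). Members called in sham animals between the sexes ranged from 3 to 8 over single libraries left out, where 1928 to 2189 of all genes were called. In PCB 52 animals 8 members were called without animals 13 to 16, and the share of all genes in that setting is not given here.

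Members above 0 fell from 20 to 8 in females without animals 13 to 16, and to 14 without PCB 52 female 1 alone. Over single libraries left out they numbered 9 to 18 for the difference between responses (18 without sham female 1, 17 without PCB 52 female 5, against 11) and 5 to 11 between sham females and males (5 without sham female 1, and 5 with limma-voom, against 8). These counts and the pathway genes were added to the alternatives after the data were seen.

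Uncalled values near 0 changed sign. Bst2 in males became 0.008 with limma-voom and 0.083 without animals 13 to 16, where Irf9 (0.037), Irf1 (0.018) and Ifngr2 (0.012) in males and Bst2 on average (0.039) also turned positive. Over single libraries left out, male Bst2 ranged from -0.08 to 0.032, male Irf1 from -0.1 to 0.024, male Irf9 from -0.096 to 0.017, female Ifi27 from -0.153 to 0.01, average Ifi27 from -0.079 to 0.001, average Isg15 from -0.126 to 0.084 and female Oas2 from -0.299 to 0. The cause was not tested. Low counts limit Ifit1, and Oas2, Oasl, Rsad2 and Cxcl10 rest on a few CPM.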
